A study of Rattus norvegicus with 12 samples.

Results

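The genes described here are 10 components of transforming growth factor beta (TGF-beta) signalling: the decoy receptor Bambi, the ligands Tgfb1, Tgfb2 and Tgfb3, the receptors Tgfbr1, Tgfbr2 and Tgfbr3, the receptor-activated Smads Smad2 and Smad3, and the inhibitory Smad7. They were chosen by their symbols, as all probe sets annotated with only that gene, around Bambi, which was picked because its level was higher in both active groups of rats. A probe set reads a transcript with several short probes. Of the 10 genes, 9 had such a probe set, 15 in all out of 31042, and Tgfbr2, the receptor that binds the ligand first, is not analysed here. Of these 15 probe sets, 12, from 9 genes, passed the filter on low signal and were tested among 18626. The other 3 (the second of Tgfbr1, the second of Smad3 and the third of Smad7) were dimmer and are given by their values.

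RNA came from the left ventricle of female Sprague-Dawley rats aged 16 months and was measured on 12 Affymetrix rat arrays, 4 for each of 3 groups. EX rats had voluntary exercise, described in the labels as regular and lifelong, PA rats had physical activity for 1 h on 2 occasions a week, and SED rats were sedentary and are the reference. The design text puts 12 animals in each group and 4 pooled animals on each array, which would fill 3 arrays, whereas 4 are listed, so how the animals divide over the arrays is not known. Each array is treated as 1 replicate, and the spread between arrays is a spread between pools, not between rats. All values below are log2 intensities, so differences are log2 fold changes, and values of different probe sets are not compared as levels.

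TGF-beta ligands are secreted in a latent form bound to matrix. Once released, a ligand binds the type II receptor Tgfbr2, which recruits and phosphorylates the type I receptor Tgfbr1, and Tgfbr1 in turn phosphorylates Smad2 and Smad3, which enter the nucleus with Smad4 and regulate transcription. Betaglycan, encoded by Tgfbr3, presents ligand to the receptors, Smad7 is an induced inhibitor that blocks and degrades the type I receptor, and Bambi resembles a type I receptor but lacks the kinase domain and so dampens the signal. In the heart the pathway is best known for driving fibroblasts to deposit collagen.

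The promoters of Bambi and Tgfbr3 are shown because probe sets of these genes gave the clearest separation of groups among the receptor-type molecules measured. The higher Bambi level in both active groups had chosen that gene. For Tgfbr3 the separation held only on the brighter of its tested probe sets. Each sequence is the 250 bases before the RefSeq transcription start in the GRCr8 assembly, written 5′ to 3′ on the gene's strand, with GGCGCC, a GC-rich motif known to bind Smads, in capitals. The Bambi window lies at chr17:58821004-58821253 on the minus strand and the Tgfbr3 window at chr14:2634044-2634293 on the plus strand.
Bambi: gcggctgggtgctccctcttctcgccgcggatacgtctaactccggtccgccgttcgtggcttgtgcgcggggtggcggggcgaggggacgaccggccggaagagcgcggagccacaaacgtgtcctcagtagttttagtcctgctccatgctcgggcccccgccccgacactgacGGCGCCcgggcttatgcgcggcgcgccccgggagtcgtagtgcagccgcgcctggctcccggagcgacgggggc
Tgfbr3: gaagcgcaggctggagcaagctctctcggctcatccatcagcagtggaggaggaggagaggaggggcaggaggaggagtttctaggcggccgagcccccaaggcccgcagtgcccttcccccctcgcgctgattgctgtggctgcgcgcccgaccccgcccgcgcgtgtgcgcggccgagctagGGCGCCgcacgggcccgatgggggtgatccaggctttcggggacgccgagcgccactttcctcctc
Counted from the transcription start, GGCGCC begins at -74 in Bambi and at -66 in Tgfbr3. Over the 10 genes, which have 11 windows since Smad2 has a second start, 6 of 11 windows held GGCGCC, against 8.69% of 33469 windows of the same length. The windows of Bambi and Tgfbr3 hold 72.4% and 71.2% G or C, against a median of 51.2% over all windows, and a motif made only of G and C is met more often in such sequence. The Smad motif GTCT was in 7 of 11 windows and 84% of all windows, its extended form CAGAC in 0 of 11 and 42.9%, and the palindrome GTCTAGAC in 0 of 11 and 0.173%, all counted on both strands. GTCT is part of the palindrome, and reading CAGAC on the other strand also gives GTCT. These matches describe letters and are not evidence of binding.

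Bambi was lowest in the SED arrays and highest in the PA arrays. It read 6.04, 6.24, 6.10 and 6.33 on the 4 SED arrays, 6.93, 6.85, 6.60 and 6.64 on the PA arrays, and 6.53, 6.37, 6.55 and 6.57 on the EX arrays. No array of any group fell within the range of another: the highest SED array lay below the lowest EX array, and the highest EX array below the lowest PA array. The means were 6.18 ± 0.13 in SED, 6.76 ± 0.16 in PA and 6.51 ± 0.09 in EX (SD, n = 4 each). Relative to SED the difference was 0.58 in PA, a fold of 1.49, and 0.33 in EX. These values chose the gene and are therefore given without a test. Of the 18626 tested probe sets, 4 (0.0215%) had all 3 groups apart in this order, with Bambi among them, which is a description only for the same reason.

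The difference between the 2 active groups was not used to choose Bambi. EX was lower than PA by 0.25 ± 0.10 (SE), with a 95% interval of -0.48 to -0.02. The p was 0.0348 before adjustment and 1 after Benjamini-Hochberg adjustment over all 18626 probe sets in limma, so the separation of EX and PA did not pass the threshold of 0.05. SED 1 was the array least like the others, and without it Bambi was 0.53 above SED in PA and 0.28 above SED in EX.

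**Figure D1:**
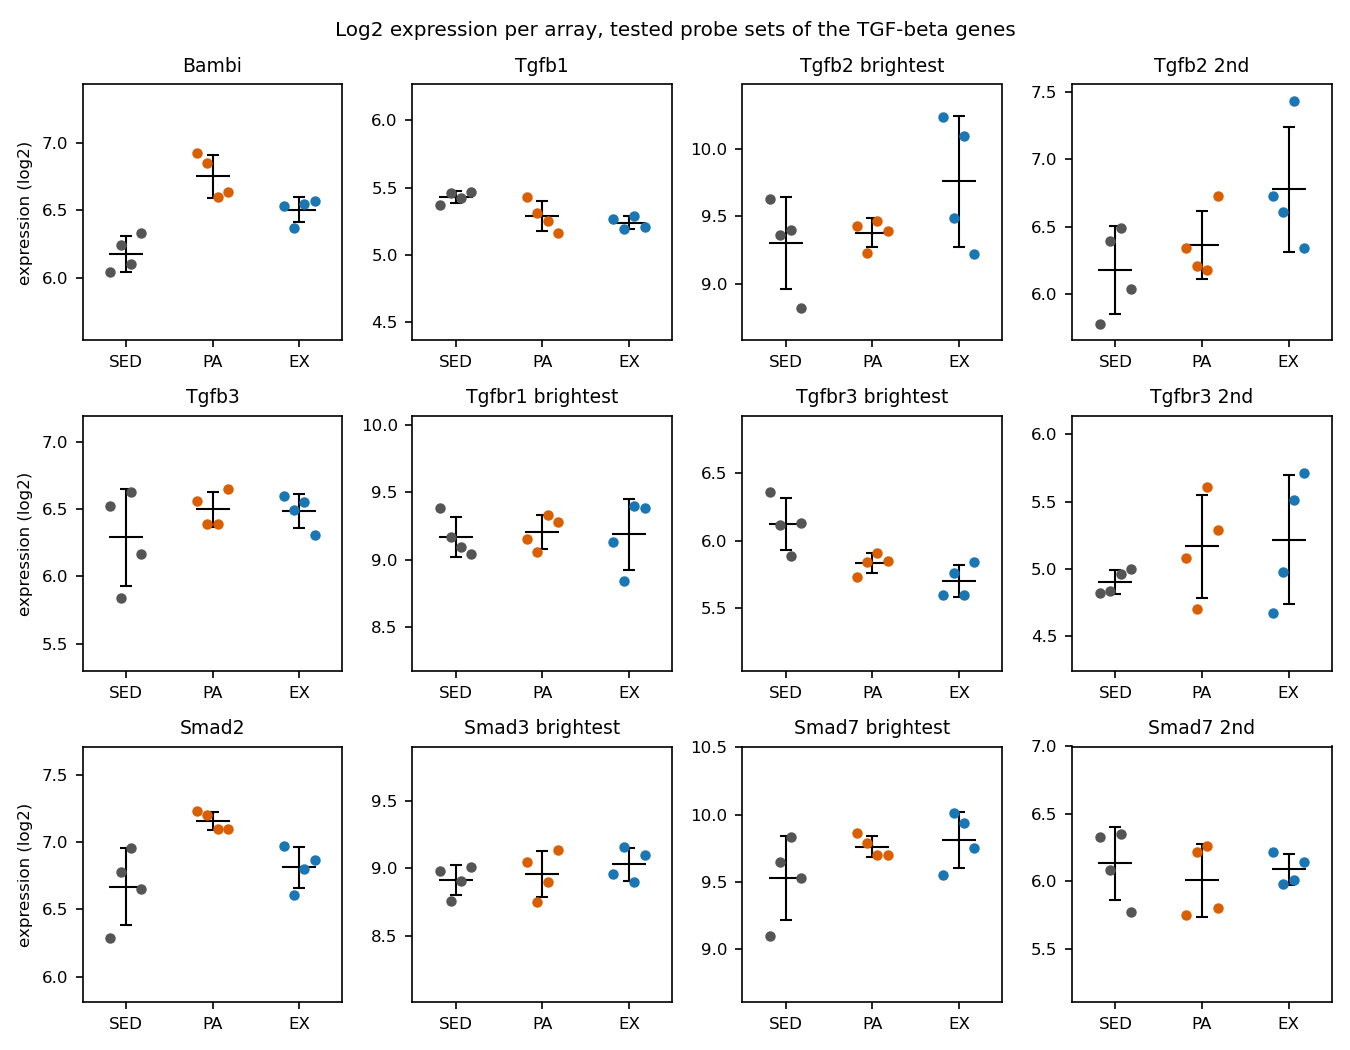
Log2 expression (y axis, in each panel a span of equal height) of the 12 tested probe sets on each array of SED, PA and EX (x axis); points are arrays, and the black bar and whiskers give the mean and SD of 4 arrays. The Bambi points form 3 bands that do not overlap, Smad2 is higher on all 4 PA arrays, and Tgfb2 spreads most among the EX arrays.

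With Bambi left aside, no probe set of the other genes passed the adjusted threshold in any comparison. The whole table gave the same answer: limma called 0% of 18626 probe sets at an adjusted p under 0.05 in EX against SED, 0% in PA against SED, 0% in EX against PA and 0% in both active groups together against SED. At an unadjusted p under 0.05, 3 of the 11 other tested probe sets differed between EX and SED, against 15.6% of all probe sets (2906), 2 of 11 between PA and SED, against 15.2% (2840), and 3 of 11 between both active groups together and SED, against 19.2% (3583). With Bambi counted, 2 of 12 differed between EX and PA, against 2.87% (534); they were Bambi and Smad2. The 4 arrays of EX and SED did not overlap for 2 of 11 (Tgfb1 and the brighter Tgfbr3 probe set, both lower in EX), against 7.89% of all. Those of PA and SED did not overlap for 1 of 11 (Smad2, higher in PA), against 8.39%. Those of EX and PA did not overlap for 2 of 12 (Bambi and Smad2, both lower in EX), against 2.78%, and those of both active groups together and SED for 0 of 11, against 3.34%. With so few genes, these counts are read as a description beside the background. The comparisons with SED share its 4 arrays and are not independent of each other.

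Of the 11, 8 had a higher mean in EX than in SED, where 59.7% of all probe sets did. Against SED, the PA mean was higher for 8 of 11, beside 60.9% of all. The median difference over the 11 was 0.14 for EX against SED and 0.08 for PA against SED, beside 0.06 in each case over all tested probe sets. The 11 include the second Tgfbr3 probe set, which passed the filter only through its higher values in the active groups. Its higher means are therefore no separate result. Tgfb2, Tgfbr3 and Smad7 enter through both of their tested probe sets, so the 11 are not separate genes.

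**Figure D2:**
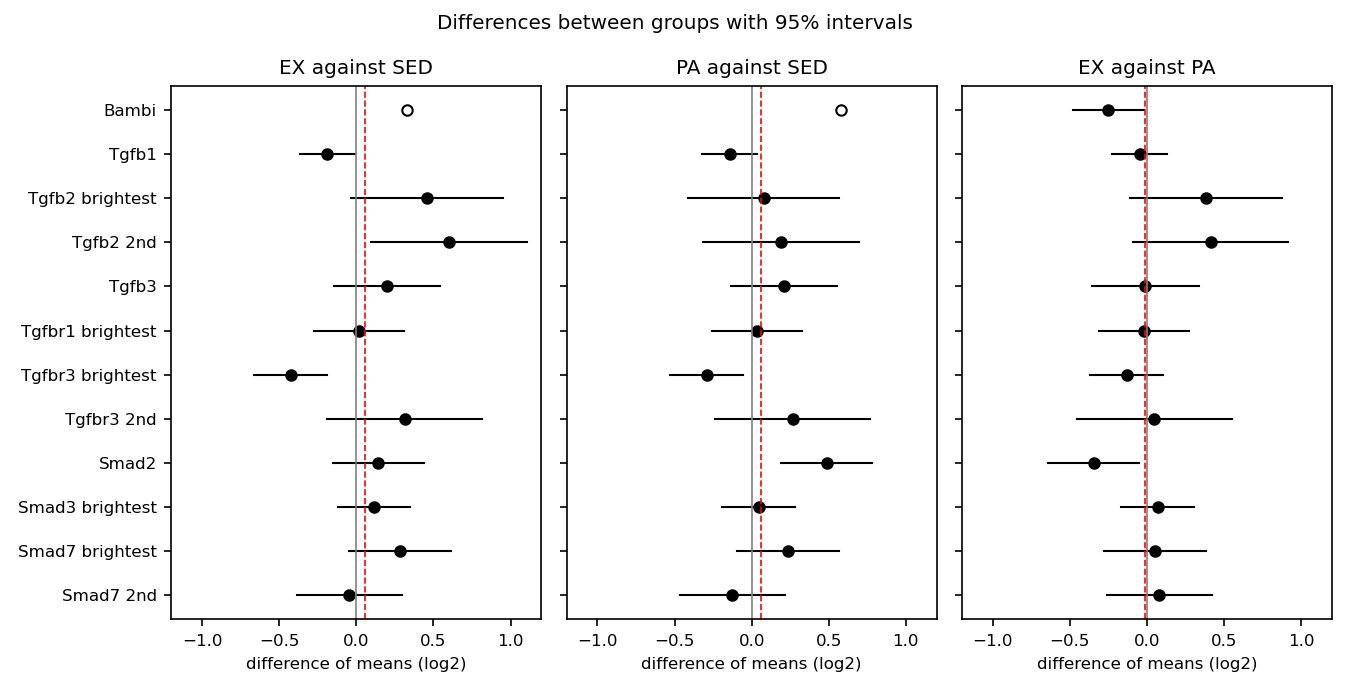
Difference of group means (x axis, log2) for each tested probe set (y axis), with its 95% interval from the fit over all 12 arrays, in 3 comparisons; open circles mark Bambi against SED, shown without an interval because those values chose the gene, and the red dashed line is the median of all tested probe sets. In EX against SED the intervals of the brighter Tgfbr3 probe set and of Tgfb1 lie below 0 and that of the second Tgfb2 probe set above 0; in PA against SED that of Smad2 lies above 0 and that of the brighter Tgfbr3 probe set below 0, and in EX against PA those of Bambi and Smad2 lie below 0, all before any adjustment for the 18626 tests.

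Among the ligands, Tgfb1, the main isoform of injured and inflamed tissue, was slightly lower in EX. It read 5.37, 5.46, 5.42 and 5.47 in SED, 5.43, 5.31, 5.25 and 5.16 in PA, and 5.27, 5.19, 5.29 and 5.21 in EX. All EX arrays lay below all SED arrays, and the PA arrays spread from below the lowest EX array into the SED range. EX minus SED was -0.19 ± 0.08 (SE; limma p 0.0386, adjusted p 0.292), and PA minus SED was -0.14 (adjusted p 0.418). The mean of the leukocyte marker list, relative to all 12 arrays, was between -0.22 and 0.66 in SED, between -0.19 and 0.24 in PA and between -0.19 and -0.05 in EX, with 2 of 14 tested markers higher in EX than in SED. The EX minus SED difference of this list was -0.24, and -0.06 without SED 3, which was not the highest SED array in Tgfb1. Its part in the Tgfb1 values was not tested.

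Tgfb2, the isoform that depends most on betaglycan for receptor binding, had higher means in EX on both of its probe sets, with the arrays EX 1 and EX 3 the highest on the brighter one and EX 3 on the other. The brighter probe set read 9.63, 9.36, 9.40 and 8.82 in SED, 9.43, 9.23, 9.47 and 9.39 in PA, and 10.24, 9.49, 10.10 and 9.22 in EX. The EX arrays thus split into 2 high ones and 2 within the range of the other groups, and EX overlapped both SED and PA. The other probe set read 5.78, 6.39, 6.49 and 6.04 in SED, 6.34, 6.21, 6.18 and 6.73 in PA, and 6.73, 6.61, 7.43 and 6.34 in EX. There EX 3 was the highest and EX 1 was level with PA 4. EX minus SED was 0.46 ± 0.23 (SE; adjusted p 0.352) on the brighter probe set and 0.60 ± 0.23 (p 0.0232, adjusted p 0.241) on the other in limma, with a 95% interval of 0.10 to 1.11 for the latter. PA minus SED was 0.08 and 0.19. Without EX 1 the EX difference on the brighter probe set was 0.30, and without EX 3 it was 0.35 there and 0.39 on the other.

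The same arrays stood out in markers of atrial muscle. The mean of the 4 atrial markers measured, relative to all 12 arrays, was 0.83 on EX 1, -0.92 on EX 2, 1.25 on EX 3 and -1.02 on EX 4. It stayed between -0.34 and 0.31 on the SED arrays and between -0.34 and 0.20 on the PA arrays, and the EX and SED means differed by 0.04. The EX arrays highest on the brighter Tgfb2 probe set were therefore those high in atrial markers, and the part of atrial tissue in the Tgfb2 values was not tested.

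**Figure D3:**
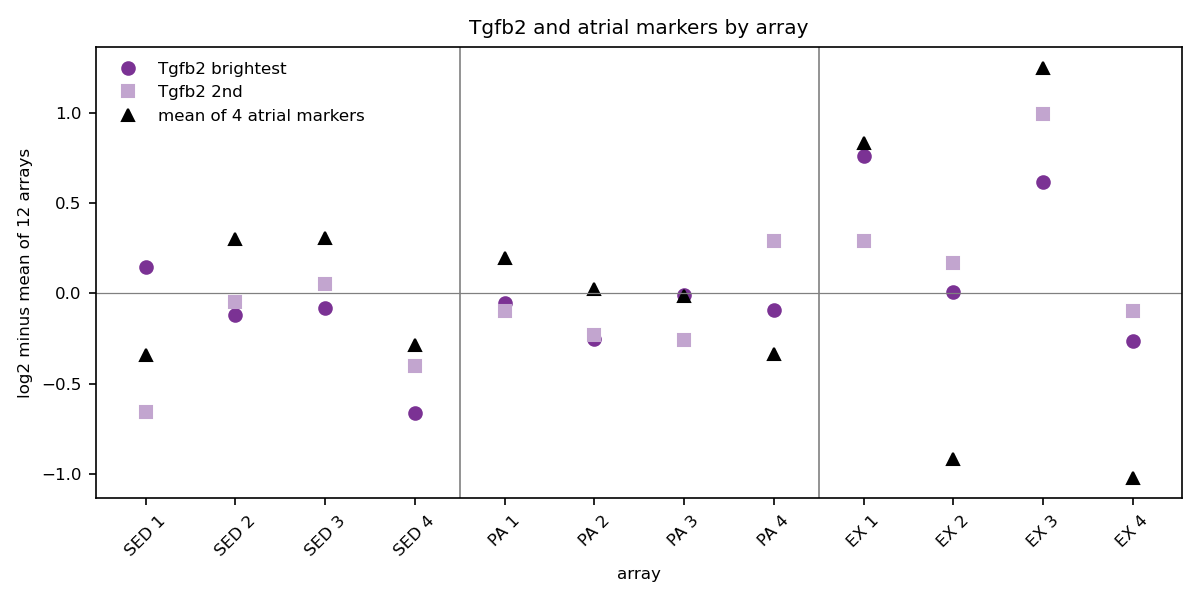
Log2 value minus the mean of 12 arrays (y axis) on each array (x axis) for the 2 probe sets of Tgfb2 and for the mean of 4 atrial marker genes. EX 1 and EX 3 are above the other arrays in the atrial markers, at 0.83 and 1.25, and also hold the 2 highest values of the brighter Tgfb2 probe set.

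Tgfb3, the remaining isoform, showed no separation. It read 6.52, 5.84, 6.63 and 6.17 in SED, 6.56, 6.39, 6.39 and 6.65 in PA, and 6.60, 6.49, 6.55 and 6.31 in EX. The SED arrays spread more widely than the active ones and enclosed nearly all of them. The difference from SED was 0.20 in EX (adjusted p 0.568) and 0.21 in PA (adjusted p 0.533) in limma. Without SED 2, the lowest array, these were 0.05 and 0.06, and without SED 3 they were 0.31 and 0.32.

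Of the receptors, Tgfbr1, the signalling kinase also called ALK5, had nearly the same level in all groups. Its bright probe set read 9.38, 9.17, 9.09 and 9.04 in SED, 9.15, 9.06, 9.33 and 9.28 in PA, and 9.13, 8.84, 9.40 and 9.38 in EX. The groups overlapped throughout, and EX minus SED was 0.02 with a 95% interval of -0.27 to 0.31. PA minus SED was 0.04 (interval -0.26 to 0.33). Under quantile normalization both differences were negative (-0.05 and -0.04). The dim second probe set of Tgfbr1 lay between 3.13 and 4.21 over all arrays.

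Tgfbr3, the betaglycan gene, gave the smallest unadjusted p of the 11 probe sets, on its brighter probe set. It read 6.36, 6.12, 5.89 and 6.13 in SED, 5.73, 5.84, 5.91 and 5.85 in PA, and 5.60, 5.76, 5.60 and 5.84 in EX. Every EX array lay below every SED array, and among the PA arrays only PA 3 reached the lowest SED value. EX minus SED was -0.43 ± 0.11 (SE; limma p 0.00205, adjusted p 0.134), PA minus SED was -0.29 (adjusted p 0.259), and both active groups together differed from SED by -0.36 (adjusted p 0.0941). Without SED 3 the last adjusted p was 0.0559, the lowest among the tested differences of these genes under any setting tried (Bambi against SED was not tested). SED 1 was the highest SED array on this probe set. Without it the limma differences were -0.35 in EX (adjusted p 0.168), -0.21 in PA (adjusted p 0.406) and -0.28 for both active groups together (adjusted p 0.170). With both Tgfbr3 probe sets averaged, EX minus SED was -0.06.

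The second Tgfbr3 probe set did not follow the first. It read 4.82, 4.84, 4.96 and 5.0 in SED, 5.08, 4.70, 5.61 and 5.29 in PA, and 4.67, 4.98, 5.51 and 5.71 in EX, so its means were higher in the active groups, by 0.31 in EX (adjusted p 0.537) and 0.27 in PA (adjusted p 0.581). Single arrays moved these values: the EX difference was 0.15 without EX 4 and 0.50 without EX 1, and the PA difference was 0.12 without PA 3 and 0.42 without PA 2. The 2 probe sets' EX differences were 0.74 apart (-0.74, first minus second). An exact permutation test of that gap over the 8 arrays, two-sided, gave p 0.0571, where 0.0286 is the smallest it can give, and 0.6 after adjustment over 21 such tests of probe set pairs. The SED mean of this second probe set, 4.905, was below the filter at 4.94, so it was tested only because of its higher values in the active groups.

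Among the Smads that carry the signal, Smad2 was highest in PA. It read 6.29, 6.78, 6.96 and 6.65 in SED, 7.23, 7.20, 7.10 and 7.10 in PA, and 6.97, 6.61, 6.80 and 6.87 in EX. All PA arrays lay above all arrays of the other groups, while EX lay within the SED range apart from EX 1, which was just above it. PA minus SED was 0.49 ± 0.13 (SE; limma p 0.00361, adjusted p 0.187) and EX minus PA was -0.35 (p 0.0253, adjusted p 1). EX minus SED was 0.14 (adjusted p 0.637). SED 1 was the lowest array of all, and without it PA minus SED was 0.36 (adjusted p 0.248) and EX minus SED 0.02.

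Smad3, the other receptor-activated Smad, had bright signal and overlapping groups. It read 8.98, 8.76, 8.91 and 9.01 in SED, 9.05, 8.75, 8.90 and 9.14 in PA, and 8.96, 9.16, 8.90 and 9.10 in EX. EX minus SED was 0.12 with a 95% interval of -0.12 to 0.35, and PA minus SED was 0.05 (interval -0.19 to 0.28), or -0.04 under quantile normalization. The dim second probe set lay between 3.41 and 4.17.

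Smad7, the feedback inhibitor, had a brightest probe set with higher means in both active groups. It read 9.10, 9.65, 9.83 and 9.53 in SED, 9.86, 9.79, 9.70 and 9.70 in PA, and 9.55, 10.01, 9.94 and 9.75 in EX. SED 1 was again the lowest array, and the other 3 SED arrays overlapped both active groups. EX minus SED was 0.29 (limma adjusted p 0.394) and PA minus SED 0.24 (adjusted p 0.466), and without SED 1 these were 0.14 and 0.09. Its second probe set read 6.33, 6.08, 6.35 and 5.77 in SED, 5.75, 6.22, 6.26 and 5.80 in PA, and 6.22, 5.98, 6.01 and 6.14 in EX. There the differences had the opposite sign and were small, -0.05 in EX (-0.39 to 0.30) and -0.13 in PA. The dim probe set left, which lay between 3.80 and 4.42, had lower means in EX (-0.17) and PA (-0.13) too.

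The rest of the TGF-beta family was read from 6 lists by role, 125 genes in all, of which 109 had a probe set of their own and 92 were tested, each by its brightest probe set. None passed the adjusted threshold of limma in any comparison. At an unadjusted p under 0.05, 12 of 92 (13%) differed between EX and SED, where 12.9% of all 10244 tested genes did, and 7 of 92 (7.61%) between PA and SED, where 12.5% did. Between EX and PA 0 of 92 did, against 2.53%, and between both active groups together and SED 15 of 92 (16.3%), against 16.1%. Single lists differed from this total: 4 of the 11 tested receptors (36.4%) had such a p in EX against SED, 3 (27.3%) in PA against SED and 4 (36.4%) in the pooled comparison, and 3 of the 13 genes of latent storage and activation (23.1%) in EX against SED. The 4 receptors in EX against SED were 2 higher and 2 lower. Acvr2b, counted in each of these receptor comparisons, passed the filter on low signal only through its higher SED values. Its place in these counts is therefore no separate result. Other lists lay below the total, among them 0 of 8 ligands and 1 of 21 TGF-beta-induced genes (4.76%) in EX against SED. In PA against SED, 0 of 13 genes of latent storage, 0 of 11 antagonists and 0 of 21 induced genes had such a p.

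The 8 tested ligands, mostly bone morphogenetic proteins and activins, were split, 3 with a higher and 5 with a lower mean in EX than in SED (median -0.08). Bmp2 had a difference of 0.44 in PA against SED (adjusted p 0.287), which was 0.27 without SED 1. Bmp4 was lower, by -0.43 in EX (limma adjusted p 0.419) and -0.42 in PA (adjusted p 0.417), or -0.33 and -0.32 without SED 1. Inhbb was -0.42 in EX (adjusted p 0.41), or -0.385 without SED 1. Of the 13 genes that store or release latent TGF-beta, 7 had a higher and 6 a lower mean in EX (median 0.02). Lrrc32, which tethers latent TGF-beta on the cell surface, differed by -0.65 (adjusted p 0.206), or -0.39 without SED 1, and the activating integrin subunit Itgb3 differed by 0.36 (adjusted p 0.257).

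Of the 11 other family receptors, 6 had a higher and 5 a lower mean in EX (median 0.06). The activin receptor Acvr2b was -0.30 in EX (adjusted p 0.177) and -0.28 in PA (adjusted p 0.224) relative to SED, or -0.23 and -0.21 without SED 1. Its means in PA (4.91) and EX (4.895) were below the filter at 4.94, and its SED mean (5.19) was above it. Acvr2b was therefore tested only because of its higher SED values, and its lower means in the active groups are no separate result. Another activin receptor, Acvr2a, went the other way, at 0.63 in EX and 0.73 in PA (limma adjusted p 0.303 in PA). The bone morphogenetic protein receptor Bmpr1a was 0.24 in EX (adjusted p 0.186), or 0.25 without SED 1. Endoglin (Eng), a co-receptor of endothelium, was -0.31 in EX (adjusted p 0.245), or -0.215 without SED 1. The endothelial marker list differed by 0.02 between EX and SED, with 4 of 9 markers higher in EX and EX arrays between -0.08 and 0.12, and its part in the Eng value was not tested. Among the 28 other Smads and Smad regulators, 22 had a higher mean in EX (median 0.09) and 20 in PA (median 0.11), where 56.9% and 59.7% of all tested genes did. Dab2, an adaptor that links receptors to Smads, was 0.69 in EX (adjusted p 0.184), or 0.43 without SED 1, Traf6, a ubiquitin ligase of the Smad-independent branch, was 0.38 (adjusted p 0.179), and Nedd4l, a ubiquitin ligase that acts on activated Smads, was 0.28 in PA (adjusted p 0.204).

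The secreted antagonists and binding proteins had 9 of 11 tested genes with a higher mean in EX (median 0.11) and 8 of 11 in PA (median 0.12), beside 56.9% and 59.7% of all tested genes. The antagonist Nbl1 was 0.49 in EX (adjusted p 0.257), or 0.30 without SED 1, and the proteoglycan decorin (Dcn), which binds TGF-beta in the matrix, was 0.30 in EX (adjusted p 0.411), or 0.10 without SED 1. Of the 21 tested genes induced by TGF-beta, 16 had a higher mean in EX (median 0.11) and 10 in PA (median 0), beside the same shares of all genes, and this difference between the groups was not tested. Among them, fibronectin (Fn1) was 0.46 in EX (adjusted p 0.364) or 0.30 without SED 1. The brightest probe set of the collagen I gene Col1a1 was -0.24 in EX (adjusted p 0.345), or -0.18 without SED 1. Its other tested probe set was -0.04, and the collagen I gene Col1a2 was 0.18 (limma p 0.286 before adjustment). Junb was -0.29 in EX (adjusted p 0.313), or -0.21 without SED 1.

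**Figure D4:**
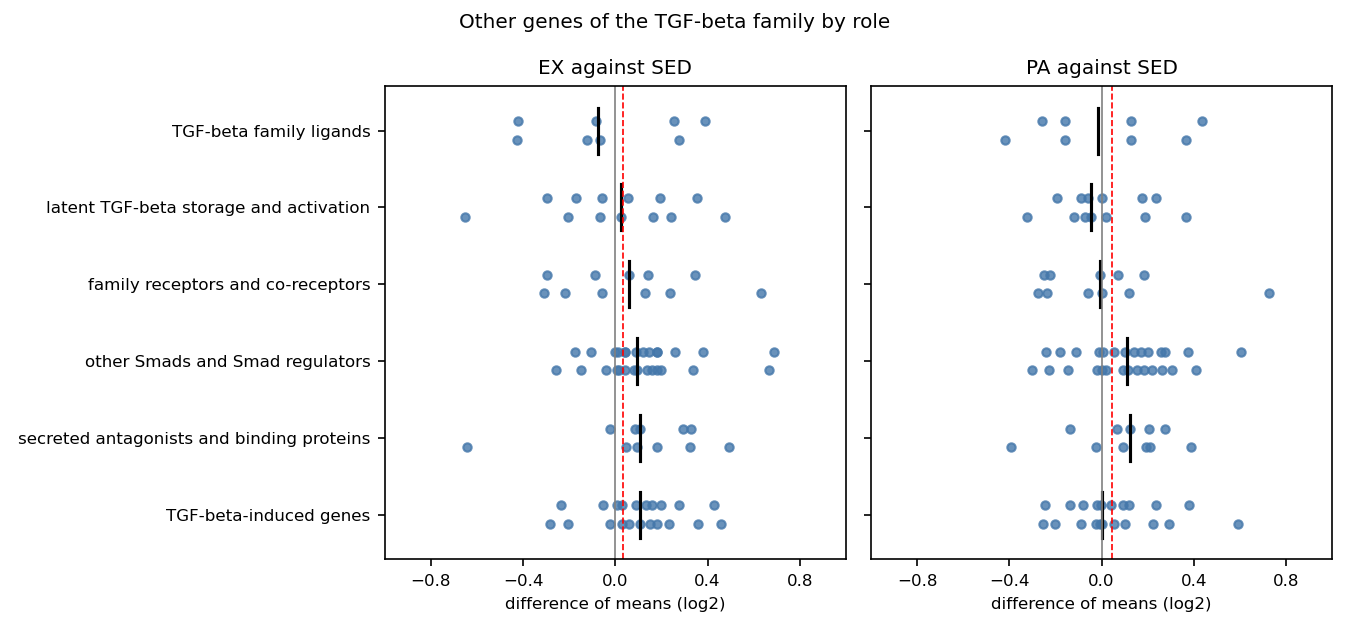
Difference of means (x axis, log2) for each tested gene of the 6 role lists (y axis), EX against SED on the left and PA against SED on the right; points are genes, black ticks the list medians, and the red dashed line the median of all tested genes. The medians of the Smad regulators (0.09 and 0.11) and of the antagonists (0.11 and 0.12) lie to the right of that line in both panels, and single genes scatter on both sides of 0.

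The tissue label was checked against marker genes. The 9 cardiomyocyte markers measured had means between 11.6 and 13.2, and the list differed by -0.02 between EX and SED. SED 1 stood apart, its correlation with the others averaging 0.964, where for the remaining 11 this average was 0.987 to 0.989. SED 1 was also lowest in the fibroblast list (-0.29, against -0.09 to 0.10 on the other arrays) and the blood list (-0.93), and SED 3 was highest in the leukocyte (0.66) and blood (1.04) lists. The fibroblast list was 0.08 higher in EX than in SED and 0.12 higher in PA, or 0.01 and 0.05 without SED 1. In RNA from whole ventricle, fewer cells of a type and less RNA per cell cannot be told apart, and the part of cell makeup in the values above was not tested.

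Across the 10243 other tested genes, the 5 whose 12 values correlated most closely with those of Bambi were Taf4b (Pearson r 0.89), Abce1 (0.89), Bcl2l11 (0.87), Ccdc25 (0.87) and Cep290 (0.86). Taf4b, part of the general transcription factor TFIID, had means of 6.82 in SED, 7.54 in PA and 7.29 in EX, the same order as Bambi. After the group means were removed, r was 0.88 for Ccdc25, 0.52 for Cep290, 0.51 for Abce1, 0.445 for Bcl2l11 and 0.39 for Taf4b. The r of all but Ccdc25 was thus lower within groups. The ranking used all 12 arrays, and so also the differences from SED that chose Bambi. The points share the arrays and their scaling, and being the highest of many, these r carry no p.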

How the data were processed

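The deposited table holds log2 values of 12 arrays, given to 2 decimals. MAS5 and RMA both appear in the submitters' processing notes, with no word on which produced it, so the background correction is unknown. Array medians lay between 5.64 and 5.72, so the values were used as deposited. Biotin-labelled cRNA was made from 6 µg of total RNA, per the labels' protocols. The 57 control rows of 31099 were removed. Of the others, 20826 had 1 symbol, 436 several and 9780 none, and only the first were named. Probe sets in the upper 60% by mean (at least 4.94) were fitted with limma 3.58.1 in R 4.3.3, using all 12 arrays and 1 mean per group (9 residual degrees of freedom), moderated two-sided tests and Benjamini-Hochberg adjustment at 0.05. The script was tested on simulated data. Where a gene had several tested probe sets, lists used the brightest. Named genes were all members, up to 3 genes of smallest p per list and comparison, and the 5 most like Bambi. Col1a2 was named beside Col1a1 after its value was seen. Members, lists and tests were chosen with earlier results of these data known. Nothing says whether arrays came from separate animals beyond the pools named, so p-values measure the spread between these arrays, and their number limits the precision. Alternatives covered scaling, filter, offset, variance model, array weights, samples in the fit, replicate block, averaged probe sets and arrays left out. Replicate numbers were not taken as pairs.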

Additional observations from a re-analysis of the deposited data

How the results depend on the processing

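No tested difference of these genes passed the adjusted threshold under any of the 23 settings tried; Bambi against SED was not tested. Of 1052 alternative differences, 38 took the opposite direction, 27 of them with an array left out. The count of probe sets called over the whole table was 0 in the main analysis. With array weights it was 8 for EX against SED, 1 for PA against SED, 1 for EX against PA and 184 for both active groups together. For the pooled comparison it was 1 each under quantile normalization, centred medians and averaged probe sets. Without SED 1 and SED 3 together, a choice made after seeing the data, it was 2 (EX) and 3 (pooled). Leaving out single arrays gave 0 to 2 for EX against SED (2 without SED 1) and 0 to 12 for the pooled comparison (12 without SED 3). The cause was not tested.

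The replicate numbers were not taken as pairs. Deviations of same-numbered arrays correlated between -0.21 and 0.13, with 4 of 12 over 0.1. Arrays of different numbers were not correlated for comparison, so these values cannot show whether the numbers pair the arrays. With the replicate block 1 probe set was called in the pooled comparison, and the Bambi difference of EX against PA stayed at -0.25.

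Opposite directions occurred in small differences. Under quantile normalization Tgfbr1 was -0.0499 (EX against SED), -0.0412 (PA against SED) and -0.0455 (pooled), and Smad3 -0.0402 (PA) and -0.0027 (pooled). Centred medians gave -0.0025 for Tgfbr1 in EX. Array weights gave 0.0154 for the second Smad7 probe set in EX against SED and 0.0527 for Tgfbr1 in EX against PA. Without SED 1 and 3 that Smad7 probe set was 0.16 (EX), 0.0825 (PA) and 0.12 (pooled). Leaving out single arrays gave, against SED, -0.0533 to 0.13 (EX), -0.00833 to 0.105 (PA) and -0.0171 to 0.0963 (pooled) for Tgfbr1, -0.17 to 0.0275 (EX) for the second Smad7 probe set, -0.0833 to 0.19 (PA) for the brighter Tgfb2 probe set and -0.015 to 0.115 (PA) for Smad3. For EX against PA it gave -0.0475 to 0.0492 for Tgfb3, -0.0883 to 0.0983 for Tgfbr1, -0.12 to 0.23 for the second Tgfbr3 probe set, and -0.0158 to 0.14 and -0.00583 to 0.16 for the first and second of Smad7. The cause was not tested. Probe sets near the filter, at 4.94, have little signal over background. Of those named in this paragraph, only the second of Tgfbr3 (mean 5.10) lay near it. The others included bright ones, such as those of Tgfbr1 (mean 9.19) and Smad3 (mean 8.97).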

Other observations

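Some other genes of the family also had probe sets that differed in direction, chosen here after their values were seen. For Bmp6, a bone morphogenetic protein, the brightest probe set was 0.39 higher in EX than in SED, while the other 2 tested probe sets gave -0.41 and 0.68. Without SED 1 the brightest probe set was 0.17 higher. For Twsg1, a secreted modulator of bone morphogenetic proteins, the brightest probe set was 0.19 higher in PA than in SED and the other gave -0.23. The gaps between these probe sets were not tested.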
